A study of Mus musculus with 6 samples.

Results

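Trp53 and 9 of its best known transcriptional targets (Cdkn1a, Mdm2, Pmaip1, Perp, Bbc3, Bax, Ccng1, Zmat3 and Phlda3) were followed in mouse organoids labelled as Gata6 knockout and in their controls. The 10 genes were chosen by name from the 54418 genes of the deposited table, and each matched 1 Ensembl identifier. Organoids are self-organising epithelial cultures. These were AKP organoids, a name used in the field for lines that carry a Trp53 lesion among others, although the labels do not spell it out. If so, every library carried a Trp53 lesion, in both groups. There were 3 libraries labelled GATA6KO and 3 labelled Control, each from poly(A)-selected RNA. The labels name neither the knockout lesion nor whether a library is a clone, a pool or a separate culture, and every p-value below sets a difference against a spread among libraries that could be technical.

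The p53 protein is a transcription factor that is kept low by the ligase Mdm2 and stabilised by DNA damage and oncogene signals. It then binds response elements made of paired half-sites and raises genes that halt the cell cycle (Cdkn1a), trigger mitochondrial apoptosis (Pmaip1, Bbc3, Bax) or restrain p53 itself (Mdm2, Ccng1). Its targets also have other activators, so that their transcripts are found in cells without p53. In colorectal tumours, loss of p53 is a common late event.

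Matches to the pattern of the response element are shown here for the genes whose start-site windows held one, because p53 acts on its targets through such elements. RefSeq promoter windows (GRCm38.p6, 250 bases before to 50 bases after a start) were given for 7 of the 10 genes, in 10 windows. Cdkn1a had 2 windows and Bbc3 had 3, so the counts of genes below are not on the same scale as the shares of windows. An exact p53 half-site, a pattern of 10 bases that reads the same on both strands, lay in a window of 5 of these 7 genes, and in 8.36% of all 32851 windows. Paired half-sites with 0 to 13 bases between them and at most 1 mismatch lay in a window of 2 genes, Cdkn1a and Ccng1, and in 0.627% of all windows. They are printed 5′ to 3′ on the gene's strand, with the pair of smallest spacing in capitals:
Cdkn1a, chr17:29090903-29090972, plus strand: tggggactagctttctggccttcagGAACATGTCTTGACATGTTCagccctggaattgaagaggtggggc
Ccng1, chr11:40755437-40755506, minus strand: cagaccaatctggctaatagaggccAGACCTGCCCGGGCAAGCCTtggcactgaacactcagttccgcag
Relative to the RefSeq start of its window, the pair in capitals spanned positions -51 to -32 for Cdkn1a (start at 29090979) and -195 to -176 for Ccng1. The other window of Cdkn1a, with its start further downstream at 29093769, held no exact half-site and no pair. The positions given for Cdkn1a do not refer to that start, from which the printed pair lies farther upstream. The first Cdkn1a window held 2 pairs by this rule: another exact half-site lies in the lower-case bases before the capitals and pairs with their first half-site. Single half-sites were GGACTTGCCC in the window of Trp53, GAACTTGCCT in that of Mdm2 and AGGCAAGCTT in that of Bax. The windows of Bbc3 and Phlda3 held no exact half-site. A match is a description of the letters in a window and not a measured binding site. Bases outside these windows were not searched, so the lack of a match does not show that a gene has no element.

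Of the 10 genes, 2 were called between GATA6KO and Control, both lower: Pmaip1 and Perp. That is 2 of 10, against 12.4% of all 14714 genes tested (1823 genes, at an adjusted p under 0.05 by edgeR's quasi-likelihood test) and 5.47% called lower. All 10 passed the filter on low counts. For 6 of 10, the groups had values that did not overlap, against 40.8% of all genes tested. The median log2 fold change of the 10 was -0.21, against 0.02 over all genes tested. At an unadjusted p under 0.05, 3 were lower and 2 higher, against 2163 lower and 2499 higher of the 14714.

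Total estimated counts ran from 22973245 to 31328415 per library. Gata6 itself was lower in GATA6KO, at 427, 489 and 247 counts in replicates 1 to 3, against 577, 669 and 840 in Control (edgeR adjusted p = 0.0486, and 0.149, 0.128 and 0.181 without Control replicate 1, 2 or 3). Scaled by library total alone, its adjusted p was 0.0573. All 10 epithelial markers checked were present, with summed levels of 6954 to 8321 CPM in GATA6KO and 10578 to 11499 CPM in Control (counts per 1000000 counts of a library, scaled by TMM), and 3 of them were called lower, against 5.47% of all genes tested. The log2 fold changes of all 10 were below 0, with a median of -0.45, and 9 had groups that did not overlap. The 9 fibroblast markers had at most 16 counts each in any library, and so did 6 of 7 immune and 5 of 6 endothelial markers. The exceptions were Cd68 and Vwf, which left summed immune levels of 3.20 to 5.82 CPM in GATA6KO and 11.3 to 14.5 CPM in Control, and endothelial levels of 3.54 to 5.62 CPM in GATA6KO and 2.63 to 2.73 CPM in Control. The part of these markers in the results was not tested.

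Trp53 (ENSMUSG00000059552, mm10 chromosome 11, 69580359 to 69591873, plus strand) encodes p53. It had 123, 238 and 239 counts in GATA6KO replicates 1 to 3, against 99, 95 and 116 counts in Control replicates 1 to 3. In CPM this was 4.11, 7.80 and 7.97 in GATA6KO, against 4.34, 3.29 and 3.87 in Control. GATA6KO replicate 1 lay within the range of Control and replicates 2 and 3 above it, so the groups overlapped. The log2 fold change was 0.79 (SE 0.30, adjusted p = 0.129), which did not pass the test. Without GATA6KO replicate 1 it was 1.04 (SE 0.19, adjusted p = 0.0151), and over 14 alternatives the adjusted p ran from 0.0151 to 0.351.

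Transcripts counted for Trp53 were thus present in every library. The labels do not say whether Trp53 carried a lesion or of what kind. The table sums over the whole gene and does not show which exons were read, so a lesion of Trp53 could not be checked in these values. Per kilobase of annotated exon, Trp53 had the lowest level of the 10 genes in both groups, at 1.64 ± 0.54 CPM per kilobase in GATA6KO and 0.948 ± 0.129 in Control (SD, n = 3 each). Its mean level per kilobase over the 6 libraries lay at percentile 25.8 of the genes tested. On the same scale in Control the order was Perp (112 ± 4.56), Bax (41.5 ± 1.76), Cdkn1a (36.5 ± 1.89), Pmaip1 (25.4 ± 4.86), Mdm2 (15.8 ± 0.464), Ccng1 (14.9 ± 0.905), Bbc3 (6.67 ± 1.05), Phlda3 (2.78 ± 0.141), Zmat3 (2.39 ± 0.258) and Trp53. The SDs of Mdm2 and Ccng1 overlapped, as did those of Phlda3 and Zmat3. Annotated exon length joins all transcripts of a gene and can exceed the length of the one expressed, which lowers a level per kilobase.

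The genes whose pattern was most like that of Trp53 were Icam1, Gm10501 and mt-Nd1, by the root mean square difference of centred log2 CPM over the 6 libraries among 14713 genes (0.0750, 0.101 and 0.103). Icam1, an adhesion molecule for leukocytes, had 13.4, 23.5 and 25.1 CPM in GATA6KO replicates 1 to 3, against 13.3, 11.7 and 12.1 CPM in Control. The mitochondrially encoded mt-Nd1 averaged 2361 CPM in GATA6KO and 1323 CPM in Control.

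**Figure D1:**
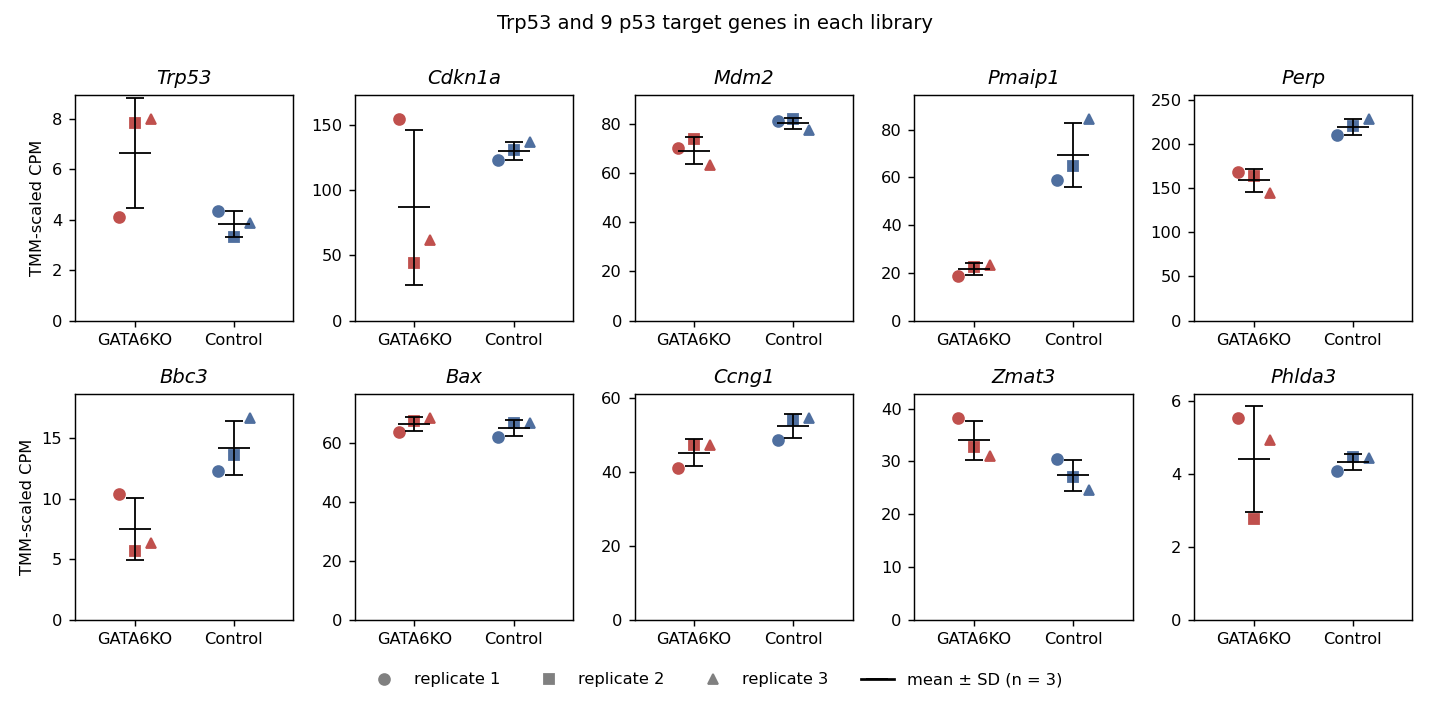
TMM-scaled CPM (vertical axes, from 0) of Trp53 and 9 p53 targets in 3 GATA6KO and 3 Control libraries, with symbols for replicate numbers and bars for mean ± SD. The values of Pmaip1 and Perp, which were called, lie apart by group, as do those of Mdm2, Bbc3, Ccng1 and Zmat3, which were not. For Trp53 and Cdkn1a, GATA6KO replicate 1 stands apart from replicates 2 and 3.

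Cdkn1a (ENSMUSG00000023067, chromosome 17, 29090976 to 29100727, plus strand) encodes p21, the inhibitor of cyclin-dependent kinases through which p53 halts the cell cycle. It measured 154, 44.1 and 61.6 CPM in GATA6KO replicates 1 to 3, against 123, 130 and 136 CPM in Control. GATA6KO replicate 1 lay above all Control libraries and replicates 2 and 3 below them all. The SD of its log2 CPM was 0.93 in GATA6KO and 0.07 in Control. The log2 fold change was -0.58 (SE 0.43, adjusted p = 0.390), and it was -1.30 (SE 0.16, adjusted p = 0.00595) without GATA6KO replicate 1. Over the 14 alternatives the adjusted p ran from 0.00595 to 0.644, and no other alternative called it. Genes of chromosome 17 as a whole lay at median log2 ratios to the Control mean of -0.02, -0.05 and -0.04 in GATA6KO replicates 1 to 3.

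Pmaip1 (ENSMUSG00000024521, chromosome 18, 66458533 to 66465565, plus strand) fell most of the 10 genes. It encodes Noxa, a BH3-only protein that neutralises the survival factor Mcl1. It measured 18.6, 22.7 and 23.4 CPM in GATA6KO replicates 1 to 3, against 59.1, 64.8 and 84.4 CPM in Control. Every GATA6KO library lay below every Control library. The log2 fold change was -1.69 (SE 0.17, adjusted p = 0.00306). The gene was called lower under each of the 14 alternatives, with log2 fold changes of -1.78 to -1.53 and adjusted p of 2.86e-16 to 0.0221. Gata6 lies on the same chromosome, whose genes had median log2 ratios of -0.04, -0.03 and -0.03 in GATA6KO replicates 1 to 3.

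Bbc3 (ENSMUSG00000002083, chromosome 7, 16308393 to 16318205, plus strand) encodes Puma, another BH3-only protein and a broad antagonist of survival factors. It measured 10.4, 5.70 and 6.37 CPM in GATA6KO replicates 1 to 3, against 12.3, 13.6 and 16.6 CPM in Control. The groups did not overlap, and GATA6KO replicate 1 was nearest to Control. With a log2 fold change of -0.92 (SE 0.26, adjusted p = 0.0666) it was not called. It was called by DESeq2 (adjusted p = 0.00988), which called 22.0% of all genes, with no filter on low counts (edgeR adjusted p = 0.0446), where 5.97% were called, and without GATA6KO replicate 1 (log2 fold change -1.23, adjusted p = 0.00906), and the adjusted p over all 14 alternatives reached 0.231.

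Bax (ENSMUSG00000003873, chromosome 7, 45461697 to 45466898, minus strand), the pore-forming effector on which BH3-only proteins act, differed between groups by less than its spread. It measured 63.9, 67.7 and 68.5 CPM in GATA6KO replicates 1 to 3, against 62.2, 66.8 and 67.1 CPM in Control. The groups overlapped, with a log2 fold change of 0.03 (SE 0.08, adjusted p = 0.840).

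Perp (ENSMUSG00000019851, chromosome 10, 18845020 to 18857073, plus strand) encodes a tetraspan membrane protein of desmosomes that is also a target of p63 in stratified epithelia. It had the highest level per kilobase of the 10 genes in both groups, and it fell. It measured 168, 164 and 144 CPM in GATA6KO replicates 1 to 3, against 210, 220 and 228 CPM in Control. No GATA6KO library reached a Control library. The log2 fold change was -0.47 (SE 0.09, adjusted p = 0.0258). The call was lost without Control replicate 1, 2 or 3 (adjusted p = 0.0964, 0.116 and 0.128, with log2 fold changes of -0.49, -0.48 and -0.45). It was also lost with the replicate number as a block in the edgeR fit (adjusted p = 0.0881).

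Neither feedback gene passed the test. Mdm2 (ENSMUSG00000020184, chromosome 10, 117688875 to 117710758, minus strand) measured 70.1, 73.9 and 63.0 CPM in GATA6KO replicates 1 to 3, against 81.1, 81.7 and 77.4 CPM in Control (log2 fold change -0.21, SE 0.09, adjusted p = 0.164). Ccng1 (ENSMUSG00000020326, chromosome 11, 40748552 to 40755311, minus strand), which encodes cyclin G1, a partner of protein phosphatase 2A, measured 41.1, 47.2 and 47.4 CPM in GATA6KO, against 48.8, 54.0 and 54.5 CPM in Control (log2 fold change -0.21, SE 0.10, adjusted p = 0.200). Both had groups that did not overlap, and neither was called under any of the 14 alternatives.

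Zmat3 and Phlda3 encode an RNA-binding zinc-finger protein that affects splicing and a PH-domain protein that restrains Akt. Zmat3 (ENSMUSG00000027663, chromosome 3, 32334792 to 32366014, minus strand) measured 38.2, 32.7 and 31.1 CPM in GATA6KO replicates 1 to 3, against 30.5, 27.1 and 24.6 CPM in Control (log2 fold change 0.31, SE 0.13, adjusted p = 0.156). It was the only target of the 9 with all GATA6KO values above all Control values. Phlda3 (ENSMUSG00000041801, chromosome 1, 135766119 to 135769136, plus strand) measured 5.52, 2.75 and 4.94 CPM in GATA6KO, against 4.07, 4.47 and 4.44 CPM in Control. Its log2 fold change of 0.02 (SE 0.29, adjusted p = 0.964) had GATA6KO libraries on both sides of Control.

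By a 2-sided exact permutation test of 3 against 3 libraries, the 6 genes whose groups did not overlap each gave p = 0.1, the smallest this design allows. That value follows from the lack of overlap and adds nothing to it. Trp53, Cdkn1a, Bax and Phlda3 gave p of 0.2 or more by the same test.

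With GATA6KO replicate 1 left out, 5 of the 10 genes were called, against 28.8% of the genes tested in that fit. Trp53 was higher, and Cdkn1a, Pmaip1, Perp and Bbc3 were lower. With Control replicate 1, 2 or 3 left out, Pmaip1 alone of the 10 was called, against 2.79%, 2.55% and 2.18% of all genes tested. Over all genes tested the median SD of log2 CPM was 0.28 in GATA6KO and 0.09 in Control.

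**Figure D2:**
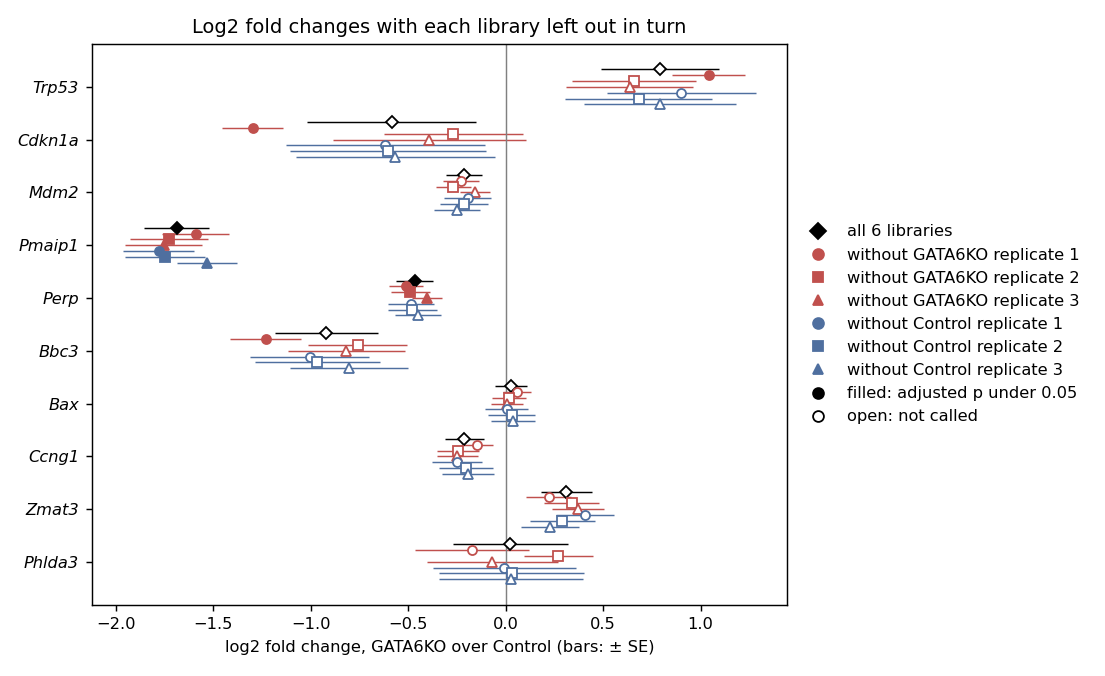
Log2 fold change of GATA6KO over Control (horizontal axis, bars ± SE) for the 10 genes, with all 6 libraries (black) and without each library in turn. Filled symbols passed an adjusted p of 0.05: Pmaip1 is filled throughout, and Trp53, Cdkn1a and Bbc3 are filled only without GATA6KO replicate 1.

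Further p53 targets were lower more often than higher among those called. Of a list of 46 further targets, 40 had enough counts to test, and 9 of these (22.5%) were called, 8 lower and 1 higher, against 5.47% and 6.92% of all genes tested. The median log2 fold change of the 40 was -0.15. The list was drawn up with earlier results of these data known, so these shares describe it and are not an independent test.

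Gdf15, a secreted stress cytokine that is also induced by the integrated stress response, fell most. It measured 5.62, 1.02 and 4.40 CPM in GATA6KO replicates 1 to 3, against 42.9, 41.0 and 49.4 CPM in Control (log2 fold change -3.59, SE 0.54, adjusted p = 0.0109). The mitochondrial glutaminase Gls2 fell to 1.54, 1.38 and 2.23 CPM in GATA6KO, against 7.05, 6.03 and 7.34 CPM in Control (log2 fold change -1.98, SE 0.26, adjusted p = 0.00669). For both genes every GATA6KO library lay below every Control library.

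Gadd45a, which slows the cycle after DNA damage, fell to 30.6, 17.7 and 15.4 CPM in GATA6KO, against 48.5, 58.8 and 67.5 CPM in Control (log2 fold change -1.46, SE 0.28, adjusted p = 0.0211). The alkaline ceramidase Acer2 was the gene that rose, at 17.6, 19.0 and 21.4 CPM in GATA6KO, against 11.8, 12.6 and 9.80 CPM in Control (log2 fold change 0.76, SE 0.15, adjusted p = 0.0244). Named after their values were seen, the other 5 that fell were the translesion polymerase Polk (log2 fold change -0.79), the receptor kinase Epha2 (-1.39), the kinase Plk3 (-0.70), the 14-3-3 protein Sfn (-0.42) and the cytokine Lif (-1.07). Without Control replicate 1, 2 or 3, 1, 2 and 0 of the 40 were called by edgeR, with 12, 10 and 10 at an unadjusted p under 0.05. Without GATA6KO replicate 1 there were 14, of which 4 were higher, in a fit that called 28.8% of all genes. Of the 14 alternatives, Gls2 was called under 13, and Gdf15 (edgeR adjusted p = 0.0617 with no filter on low counts), Polk and Epha2 under 11 each. Gadd45a and Acer2 were called under 10 each, Plk3 under 8, and Sfn and Lif under 6 each. The calls of Gadd45a and Acer2 were lost with the replicate number as a block and without Control replicate 1, 2 or 3 (edgeR adjusted p of 0.0564 to 0.130).

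Some targets that were not called varied widely among the GATA6KO libraries, and these were picked after their values were seen. The antiproliferative gene Btg2 measured 69.9, 20.9 and 41.1 CPM in GATA6KO replicates 1 to 3, against 42.1, 42.4 and 42.5 CPM in Control (log2 fold change 0.05, adjusted p = 0.940). Sesn2, a sestrin that restrains mTORC1, measured 16.1, 3.38 and 7.17 CPM in GATA6KO, against 23.0, 23.9 and 27.8 CPM in Control (log2 fold change -1.49, adjusted p = 0.101). It was called lower by DESeq2 (adjusted p = 0.0136), by limma-voom (adjusted p = 0.0497) and without GATA6KO replicate 1 (edgeR adjusted p = 0.0107), and under no other alternative. Trp53inp1, which promotes autophagy and cell death, measured 70.9, 25.5 and 51.3 CPM in GATA6KO, against 78.7, 73.9 and 98.9 CPM in Control (log2 fold change -0.77, adjusted p = 0.180). In these 3 genes GATA6KO replicate 1 was the highest and replicate 2 the lowest of the GATA6KO libraries, and for Sesn2 and Trp53inp1 all of them lay below Control.

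The apoptosis-enhancing nuclease Aen ran the other way, at 28.4, 68.7 and 54.0 CPM in GATA6KO replicates 1 to 3, against 29.7, 27.7 and 25.2 CPM in Control (log2 fold change 0.87, adjusted p = 0.104). Aen was called higher by DESeq2 (adjusted p = 0.0301) and without GATA6KO replicate 1 (edgeR adjusted p = 0.00507), and under no other alternative. Across the 40 genes, GATA6KO replicate 1 was the highest of the GATA6KO libraries for 17 (42.5%), against 37.5% of all genes tested. Tnfrsf10b, Abhd4 and Cgrrf1 lie on chromosome 14, whose genes had a median log2 ratio to Control of -0.90 in GATA6KO replicate 2 and of -0.09 and 0.04 in replicates 1 and 3.

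**Figure D3:**
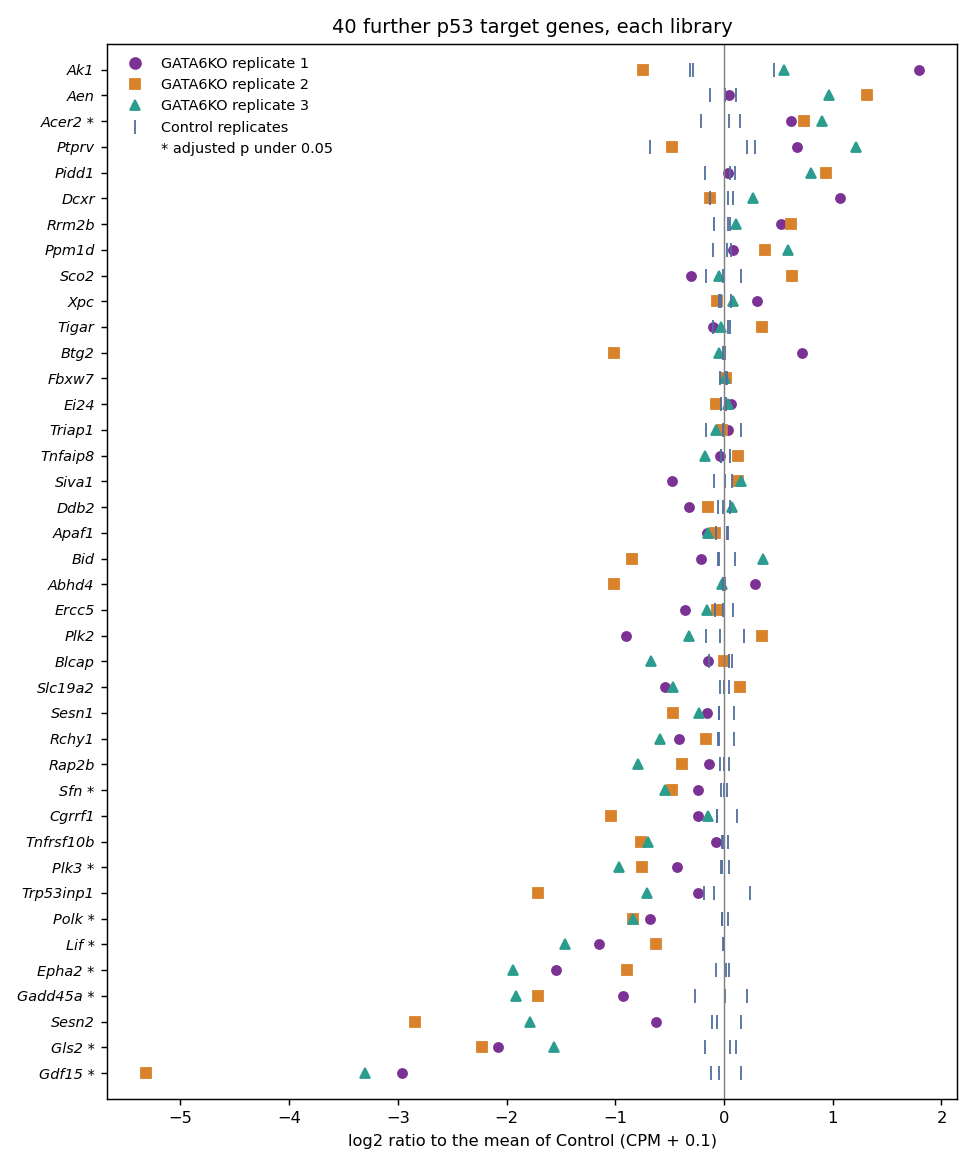
Log2 ratio of each GATA6KO library (coloured symbols) and each Control library (blue ticks) to the Control mean, with 0.1 CPM added, for 40 further p53 targets in order of fold change. Asterisks mark the 9 genes called, and Gdf15, Gls2 and Gadd45a lie furthest to the left of those.

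Regulators and relatives of p53 were called about as often as other genes. Of 17 tested from a list of 19, 2 (11.8%) were called, both higher, against 12.4% of all genes tested, and the median log2 fold change was 0.13. They were the DNA damage kinases Atm, at 67.7, 83.1 and 83.4 CPM in GATA6KO replicates 1 to 3, against 55.5, 53.2 and 52.8 CPM in Control (log2 fold change 0.54, SE 0.11, adjusted p = 0.0253), and Prkdc, at 53.9, 56.2 and 53.2 CPM in GATA6KO, against 42.6, 44.1 and 38.9 CPM in Control (log2 fold change 0.38, SE 0.09, adjusted p = 0.0405). Both calls were lost without Control replicate 1, 2 or 3 (adjusted p of 0.105 to 0.207), and that of Prkdc also without GATA6KO replicate 2 or 3 (adjusted p = 0.0546 and 0.0504).

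Mdm4, the partner of Mdm2 that masks p53, averaged 113 ± 9.84 CPM in GATA6KO and 129 ± 10.7 CPM in Control (SD, n = 3 each; adjusted p = 0.259). Cdkn2a, whose Arf product blocks Mdm2, averaged 85.6 ± 11.5 CPM in GATA6KO and 105 ± 9.39 CPM in Control (adjusted p = 0.153, and 0.0278 without GATA6KO replicate 1). The p53 relatives Trp63 and Trp73, which bind similar elements, were near 0 throughout, with at most 4 and 2 counts per library, and stayed below the filter.

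Of 11 BCL2 family genes tested, 1 (9.09%) was called, against 12.4% of all genes tested, and the median log2 fold change was 0.04. It was Bad, a BH3-only protein held in check by growth factor signals, at 19.0, 19.3 and 19.1 CPM in GATA6KO replicates 1 to 3, against 13.5, 14.9 and 14.3 CPM in Control (log2 fold change 0.43, SE 0.11, adjusted p = 0.0498). That call was lost under 10 of 14 alternatives. Mcl1, the survival factor bound by Noxa, was not called (adjusted p = 0.704). Bcl2l2 of this family lies on chromosome 14.

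Of the 6 other inhibitors of cyclin-dependent kinases, 1 was called (16.7%), against 12.4% of all genes tested, and the median log2 fold change was -0.26. Cdkn1c, the imprinted relative of Cdkn1a that encodes p57, rose to 42.4, 39.4 and 43.8 CPM in GATA6KO replicates 1 to 3, against 22.7, 21.8 and 25.5 CPM in Control (log2 fold change 0.84, SE 0.11, adjusted p = 0.00606, and 0.0524 without Control replicate 2). In contrast to Cdkn1a, its 3 GATA6KO values lay close together. Without GATA6KO replicate 1, 5 of the 6 were called, of which 4 were lower, against 28.8% of the genes tested in that fit.

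Cell cycle genes that p21 is known to hold down through the DREAM repressor complex were also called at a share near that of all genes. Of 18 tested, 2 (11.1%) were called, both higher, against 12.4%, and the median log2 fold change was 0.00. They were the replication licensing gene Mcm2, which averaged 209 ± 15.7 CPM in GATA6KO and 156 ± 3.25 CPM in Control (adjusted p = 0.0270), and the S-phase activator E2f1, which averaged 33.4 ± 3.23 CPM in GATA6KO and 19.5 ± 1.84 CPM in Control (adjusted p = 0.0135, SD and n = 3 for each). Neither was called without Control replicate 1, 2 or 3 (adjusted p of 0.0541 to 0.162). The proliferation marker Mki67 averaged 1029 ± 60.7 CPM in GATA6KO and 1049 ± 38.6 CPM in Control (log2 fold change -0.03, adjusted p = 0.862).

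**Figure D4:**
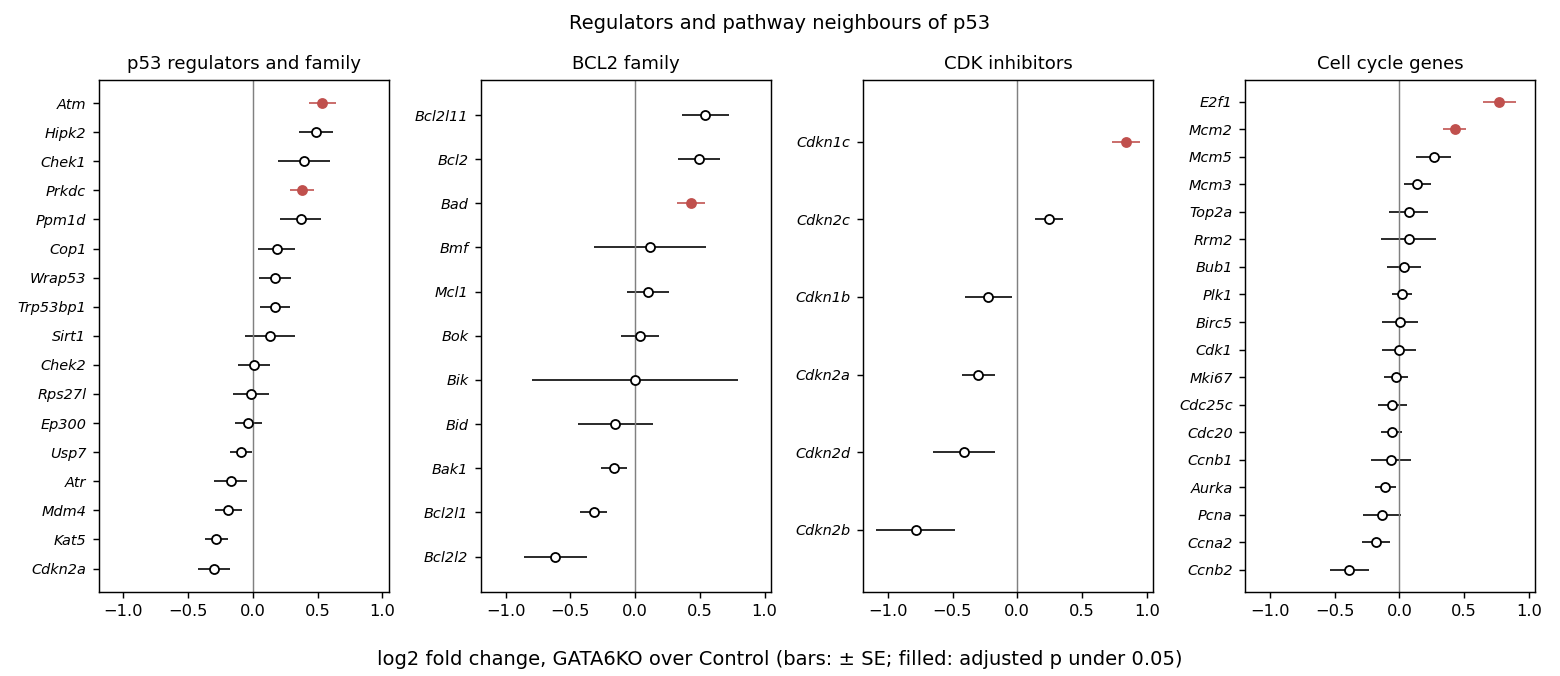
Log2 fold change of GATA6KO over Control (horizontal axes, bars ± SE) for the tested genes of 4 lists around p53. Filled symbols passed an adjusted p of 0.05, and the 6 of them (Atm, Prkdc, Bad, Cdkn1c, E2f1 and Mcm2) lie to the right of 0.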

How the data were processed

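RNA from AKP organoids was sequenced as NEBNext Ultra II Directional libraries with poly(A) selection, per the labels' protocols. The authors deposited 1 table of estimated counts, whole and unscaled. The submitters' processing notes name Salmon 1.3.0 and mm10 but state no role for either. How values were rounded, which annotation was used and whether strand was used is not given in the sources used here. Estimated counts share reads among similar transcripts, and reads of near-identical copies cannot be told apart.

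Symbols, coordinates and exon lengths came from GENCODE M21, on the assembly of mm10, which matched 54166 of 54418 identifiers. Of the 10 genes, Cdkn1a and Bax share exon bases with another annotated gene, which had at most 2 counts in any library. Groups came from the titles. No 2 libraries were identical.

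Genes were kept by edgeR's filterByExpr (about 10 counts in at least 3 libraries and 15 in total), scaled by TMM and tested by the robust quasi-likelihood test without a block, adjusting p-values by Benjamini-Hochberg across 14714 genes (threshold 0.05). The SE is the log2 fold change divided by the square root of F. Levels are TMM-scaled CPM, with the SD over 3 libraries. Versions were DESeq2 1.42.0, limma 3.58.1, edgeR 4.0.16 and R 4.3.3. The pipeline was tested on simulated data that gave each gene the same dispersion (spread among libraries) in both groups. These libraries spread more in GATA6KO than in Control, so that simulation does not show how the test behaves here.

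The genes and lists were chosen with earlier results of these data known. Bid, Ppm1d, Trp73 and Cdkn2a are each in 2 lists. Named were Gata6, the 10 genes, every called gene of a list (of more than 6 called, the 3 largest changes each way at 1 CPM or more), and Trp63, Trp73, Mdm4, Cdkn2a and Mki67 whatever their result, and the 3 genes most like Trp53. Other names were chosen after their values were seen. Chromosome medians used genes of at least 5 CPM in Control. Alternatives were RLE or library total scaling, DESeq2, limma-voom, no or a stricter filter (1 CPM in all libraries of a group), no robust estimation, a replicate block and each library left out.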

Additional observations from a re-analysis of the deposited data

How the results depend on the processing

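Of 10 genes, 2 were called, and this count was 1 with the replicate number as a block (which ended the call of Perp, adjusted p = 0.0881) and 1 to 5 with a library left out. The block also ended the call of Gata6 (adjusted p = 0.0915). Over all genes, DESeq2 called 3238, the replicate block 827, and fits without a library 332 to 4360, against 1823. Further p53 targets numbered 4 under the block and 0 to 14 without a library, against 9. Regulators numbered 4 by DESeq2, 1 with no filter, 0 under the block (edgeR, 3 at an unadjusted p under 0.05) and 0 to 7 without a library, against 2. BCL2 family genes numbered 4 by DESeq2, 0 with RLE, limma-voom, no filter, no robust estimation or the block (4 or 5 at an unadjusted p under 0.05) and 0 to 1 without a library, against 1. CDK inhibitors numbered 0 to 5 without a library, against 1, and cell cycle genes 1 under the block and 0 to 3 without a library, against 2. Phlda3 turned to -0.042 with limma-voom and -0.031 under the block, and lay between -0.17 and 0.27 with a library left out. Mki67 turned to 0.044 with library totals and lay between -0.066 and 0.018 with a library left out. Btg2 turned to -0.12 with limma-voom and -0.11 under the block, and lay between -0.45 and 0.39 with a library left out. None of these 3 genes was called under any alternative, and the causes of these shifts were not tested. The labels do not say whether same-numbered libraries were paired. Their deviations from the group means correlated at -0.01, 0.07 and -0.09, and 1 of 3 GATA6KO libraries correlated best with its own number. The deviations of 3 libraries sum to 0 within a group, so these correlations cannot decide whether the libraries were paired. The lowest of the 10 genes by count, Phlda3 and Trp53, had SEs of 0.29 and 0.30 on the log2 scale. The largest SE of the 10 was that of Cdkn1a (0.43), which had 1346 to 4608 counts per library.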

Other observations

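Across the 18 cell cycle genes, GATA6KO replicate 1, the library with the highest Cdkn1a level, was the lowest of the 3 GATA6KO libraries for 13 (72.2%), against 33.3% of all genes tested. Among the 6 other inhibitors of cyclin-dependent kinases, GATA6KO replicate 1 was the highest of the 3 for 4 genes (66.7%), against 37.5% of all genes tested. Cdkn2b, which encodes p15, measured 27.6, 17.4 and 11.2 CPM in GATA6KO replicates 1 to 3, against 30.1, 31.7 and 35.0 CPM in Control. These orders within a group were noticed after the values were seen, describe single libraries and were not tested.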
